A study of Homo sapiens with 6 samples.

Results

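The mRNA levels of the 10 MAP kinase phosphatases of the DUSP family (DUSP1, DUSP2, DUSP4, DUSP5, DUSP6, DUSP7, DUSP8, DUSP9, DUSP10 and DUSP16) were examined in K562 cells with and without an iron chelator. Positions are given on genome build GRCh38, and exons are those of the canonical transcript. The members were taken by gene symbol from GENCODE release 44, and they are 10 of the 62252 genes to which the measured transcripts were assigned. The members fall into 3 classes by where the protein acts and which kinase it prefers: a nuclear inducible class (DUSP1, DUSP2, DUSP4, DUSP5), a cytoplasmic class selective for ERK (DUSP6, DUSP7, DUSP9) and a class selective for JNK and p38 (DUSP8, DUSP10, DUSP16).

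K562 is an established erythroid leukemia cell line that carries the BCR-ABL1 fusion kinase, which keeps RAS and ERK signalling active. The cells were kept overnight in complete medium with 10 µM 21H7, a chelator that enters cells and binds iron (the Chelator group, n = 3), or with as much of its solvent, DMSO (called DMSO here, n = 3). PolyA-selected RNA was sequenced as paired-end reads to ask how mRNA levels change when iron availability is low, and the design text calls the 3 libraries of a group biological replicates. One cell line, 1 dose and 1 time were measured, and the spread between these libraries is all that the p-values can reflect.

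MAP kinases (ERK, JNK and p38) are switched on by phosphorylation of a threonine and a tyrosine in their activation loop. MAP kinase phosphatases remove both phosphates and so turn the kinase off, and each binds its substrates through a kinase-binding domain in front of the catalytic domain. Several of these genes are themselves switched on by the kinases they inactivate, which makes them both brakes on the pathway and markers of its activity, and many of their mRNAs are short-lived.

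The libraries held 78.6 to 101.1 M estimated counts (M, 1e+06 counts). DMSO replicate 2 stood apart from the other DMSO libraries: the chi-square per gene was 64.0 and 44.6 against DMSO replicates 1 and 3, and 8.56 between those 2 libraries. It was 6.57 to 30.1 within the Chelator group and 220 to 329 between the groups. DMSO libraries had mean fragments of 252 to 264 bases and Chelator libraries of 200 to 218 bases, and an effect of treatment cannot be told apart from one of fragment length. The 8 K562 erythroid markers (such as HBG1, HBG2 and GATA1) were all detected, with a summed level of 12400 to 13700 TPM in DMSO and 17500 to 18700 TPM in Chelator. TPM is a transcript's share of its library after correction for transcript length. Of these markers, none was called, HBG1, HBG2, HBE1 and HBZ were higher and KLF1 and TAL1 lower at an adjusted p under 0.05, and GATA1 did not pass. The 6 markers of other cell types summed to 64.5 to 71.1 TPM in DMSO and 50.4 to 55.4 TPM in Chelator, most of it from the epithelial gene EPCAM. The B cell gene MS4A1 was at 0 in every library. Of the others, the T cell gene CD3E and the collagen gene COL1A1 were called higher (mean normalised counts of 10.2 and 162 in DMSO and 40.4 and 492 in Chelator), EPCAM was lower at an adjusted p under 0.05, and ALB did not pass. Their part in the results was not tested. In bulk RNA a change in the RNA of each cell and a change in the mix of cells cannot be told apart.

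The phosphatase genes moved in both directions with iron chelation. DUSP5, DUSP8 and DUSP10 were called higher, DUSP7 was called lower, and DUSP1 and DUSP9 rose by less than the fold threshold. A gene was called when DESeq2's adjusted p was under 0.05 and the absolute log2 fold change was above 1. All 10 members passed the filter on the total count, and 9 received an adjusted p, DUSP2 being too low for one. Of those 9, 3 were called higher, beside 8.18% of the 24542 genes tested, and 1 was called lower, beside 2.60%. An adjusted p under 0.05, whatever the fold, was reached by 6 of the 9, beside 37.7% of all genes. Among the same 9, the normalised counts of the groups did not overlap for 5 members that were higher and 2 that were lower in Chelator, beside 49.2% of all genes in either direction. The median log2 fold change of the 9 members was 0.78, beside 0.016 for all genes with an adjusted p. It was 0.51 without Chelator replicate 1, where DUSP4 became the middle value. In limma on log2(TPM + 1) it was 0.295 over the same 9 members. Without DMSO replicate 2, the library that stood apart, the same 4 members were called, with log2 fold changes of 2.20 for DUSP5, 2.68 for DUSP8, 1.31 for DUSP10 and -1.18 for DUSP7.

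**Figure D1:**
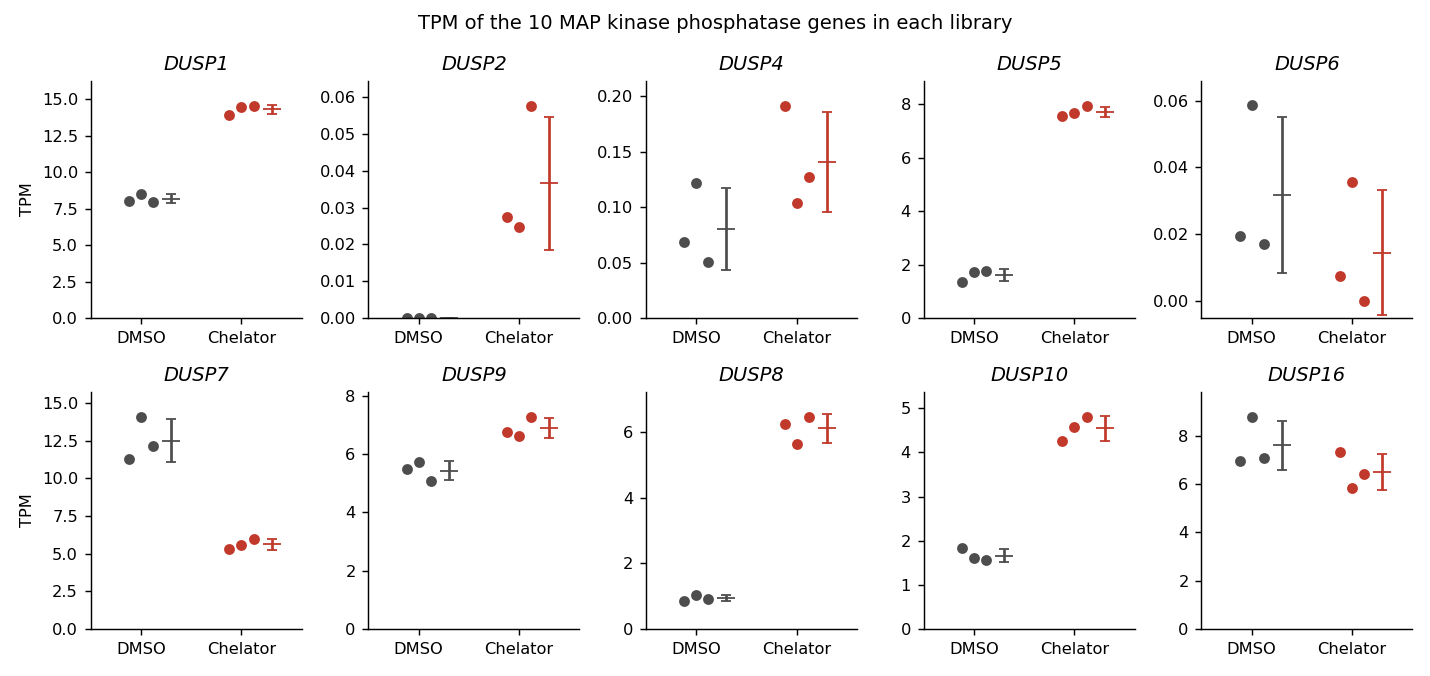
TPM of each of the 10 members in the 3 DMSO libraries (grey) and the 3 Chelator libraries (red), each panel with its own linear axis; horizontal marks and bars are the mean and SD. DUSP1, DUSP5, DUSP8, DUSP9 and DUSP10 were higher in every Chelator library, DUSP7 was lower in every one, and DUSP2, DUSP4 and DUSP6 stayed under 1 TPM.

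DUSP1 was the most abundant member of the nuclear class and was higher in every Chelator library. DUSP1 (chr5:172768096-172771195, minus strand, 4 exons) acts on p38, JNK and ERK, and it is a classic immediate early gene, switched on within minutes of a stimulus. Its level was 8.04, 8.52 and 7.95 TPM in DMSO replicates 1 to 3 and 13.9, 14.5 and 14.5 TPM in Chelator replicates 1 to 3. The groups did not overlap, and the Chelator libraries lay close together. Normalised counts, which are corrected for library size and mean transcript length, went from 1225 ± 71.5 to 2099 ± 31.9 (SD, n = 3 each). That was a log2 fold change of 0.78 ± 0.091 (SE), or 1.71-fold (DESeq2 adjusted p = 3.4e-16). DUSP1 therefore passed the test on p but not the threshold on fold, and the 95% interval of 0.60 to 0.96 lay below 1. ENSG00000253736, a noncoding RNA on the opposite strand of DUSP1, had 9, 7 and 6 counts in DMSO and 12, 5 and 13 in Chelator.

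The sequence just before the DUSP1 start is shown because it holds motifs of factors that answer to cAMP, stress and low oxygen. The 250 bases (RefSeq, GRCh38.p14, chr5:172771196-172771445, minus strand, printed 5′ to 3′) contained the cAMP response element (CRE, TGACGTCA) once, starting 125 bases before the start. They also contained the core of the hypoxia response element (HRE core, ACGTG) at 108 and 107 bases before it, as overlapping matches on the 2 strands. Capitals mark both motifs, which do not overlap each other.
DUSP1: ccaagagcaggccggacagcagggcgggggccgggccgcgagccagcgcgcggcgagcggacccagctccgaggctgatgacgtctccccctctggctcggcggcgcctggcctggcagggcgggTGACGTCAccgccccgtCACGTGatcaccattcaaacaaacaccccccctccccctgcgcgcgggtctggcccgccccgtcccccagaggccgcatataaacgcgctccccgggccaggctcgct
A CRE was found in 1.65% and an HRE core in 18.51% of the 35116 promoters of the same length in the table, and a match is only a description of the letters.

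DUSP5 showed the largest rise of the nuclear members with an adjusted p. DUSP5 (chr10:110497907-110511533, plus strand, 4 exons) encodes a phosphatase for ERK alone, which it holds inactive in the nucleus, and it is induced by ERK signalling. The DMSO libraries held 259, 274 and 300 counts and the Chelator libraries 1538, 1718 and 1515. The lowest Chelator library thus lay far above the highest DMSO library. Levels were 1.35, 1.73 and 1.77 TPM in DMSO and 7.56, 7.67 and 7.91 TPM in Chelator. The log2 fold change was 2.23 ± 0.127, or 4.69-fold (DESeq2 adjusted p = 1.7e-66). DUSP5 and DUSP8 were the members that also passed a test against a log2 fold change of 1 (DESeq2 adjusted p = 9.2e-20 for DUSP5), a stricter question than a nonzero change.

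DUSP2 and DUSP4, the remaining nuclear members, were at or near the limit of detection. DUSP2 (chr2:96143169-96145440, minus strand, 4 exons), best known from activated lymphocytes, had 0 counts in each of the 3 DMSO libraries and 4, 4 and 8 counts in the Chelator libraries. With the DMSO libraries set to the limit that a count of 0 allows (3 counts per library), the Chelator mean was 1.55-fold higher. This ratio covers counting error in DMSO only and takes the Chelator counts as exact, so it is not a lower bound. DESeq2 gave DUSP2 no adjusted p. Of the 4 settings that gave one, edgeR's quasi-likelihood test (adjusted p = 0.038) and DESeq2 without the length offset (0.044) passed, while DESeq2 with protein_coding transcripts alone (0.057) and limma on log2(TPM + 1) (0.21) did not. DUSP2 reached the minimum total count only through the Chelator libraries, so neither these tests nor the ratio is support for a rise. DUSP4, which acts on ERK and JNK in the nucleus, had 30, 44 and 19 counts in DMSO and 86, 50 and 52 counts in Chelator. After normalisation the groups overlapped, with 45.9 in DMSO replicate 2 against 41.7 in Chelator replicate 2. Its log2 fold change of 0.82 ± 0.46 did not pass (DESeq2 adjusted p = 0.16), and the 95% interval ran from -0.09 to 1.72.

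DUSP7 was the most abundant member in DMSO and the only member called lower. DUSP7 (chr3:52048919-52056571, minus strand, 3 exons) encodes a cytoplasmic phosphatase that is selective for ERK. The DMSO libraries held 2991, 3086 and 2854 counts and the Chelator libraries 1472, 1719 and 1587. Every Chelator library was below every DMSO library. Levels went from 11.3, 14.1 and 12.2 TPM to 5.29, 5.57 and 5.98 TPM. DUSP7 had a log2 fold change of -1.18 ± 0.086, or 2.27-fold lower (DESeq2 adjusted p = 2.1e-41). The fall was close to the fold threshold, and the test against a log2 fold change of 1 did not pass (DESeq2 adjusted p = 0.71).

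The 250 bases before the DUSP7 start are shown because DUSP7 moved opposite to the other called members (RefSeq, GRCh38.p14, chr3:52056572-52056821, minus strand). None of the 7 motifs searched had a match on either strand, so no base is in capitals. This says only that these letters are not in this window. DUSP10, which was called higher, also had no match to any of them in either of its entries, and neither did DUSP6.
DUSP7: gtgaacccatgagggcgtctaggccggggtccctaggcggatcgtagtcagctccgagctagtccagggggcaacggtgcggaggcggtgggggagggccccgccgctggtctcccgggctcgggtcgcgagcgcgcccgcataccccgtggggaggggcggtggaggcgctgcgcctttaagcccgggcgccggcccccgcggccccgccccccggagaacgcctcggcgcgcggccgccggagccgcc
The other motifs searched were AP-1 (TGANTCA, in 6.57% of promoters), ETS (CCGGAA, 14.53%), EGR (GCGNGGGCG, 8.41%), the CArG box (1.16%) and the NF-kappaB site (5.21%).

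DUSP9 rose slightly. DUSP9 (chrX:153642492-153651326, plus strand, 4 exons) encodes another cytoplasmic, ERK-selective phosphatase, best known from placenta. DUSP9 counts were 1132, 982 and 937 in DMSO and 1490, 1619 and 1532 in Chelator, and levels were 5.49, 5.73 and 5.07 TPM against 6.76, 6.63 and 7.26 TPM. The groups did not overlap on either scale. The log2 fold change was 0.31 ± 0.105, or 1.24-fold (DESeq2 adjusted p = 0.0094). The adjusted p rose above 0.05 with centring on the mean change (0.15), after removal of trends with GC content and length (0.23) and in limma on TPM (0.061), and it was 0.063 without Chelator replicate 3.

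DUSP6, the third cytoplasmic member and in many cells a direct readout of ERK activity, was near the limit of detection in K562. DUSP6 (chr12:89347235-89352501, minus strand, 3 exons) had 5, 13 and 2 counts in DMSO and 2, 10 and 0 counts in Chelator. The groups overlapped. DUSP6 had a log2 fold change of -1.16 ± 1.4 (DESeq2 adjusted p = 0.58) with a 95% interval of -3.90 to 1.59, so a change was not detectable at this depth.

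**Figure D2:**
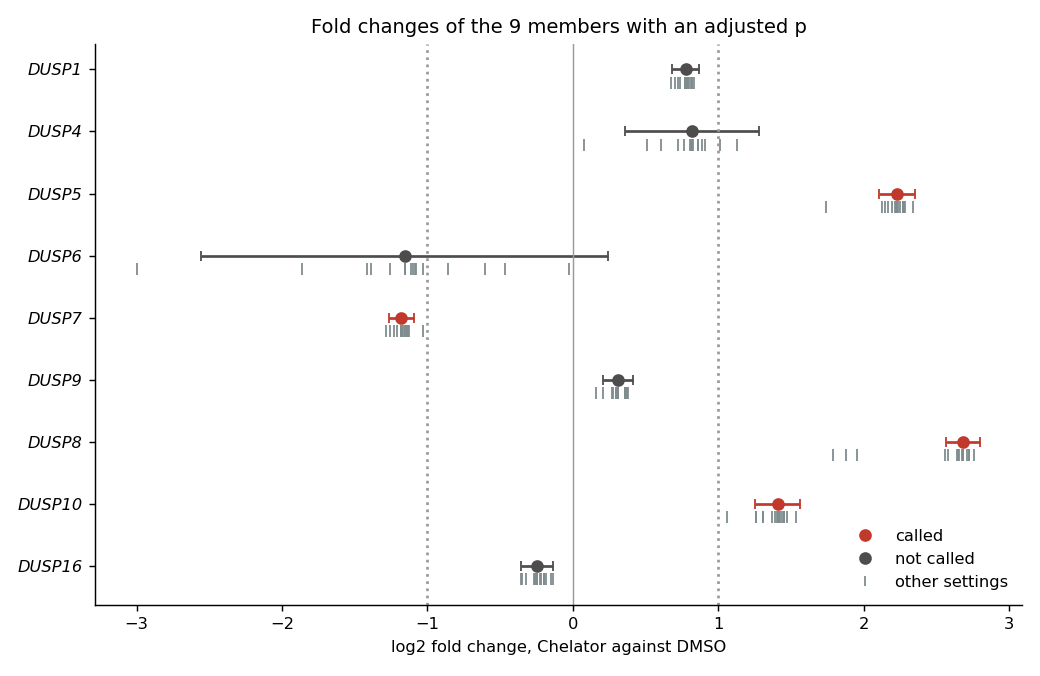
Log2 fold change of Chelator against DMSO for the 9 members with an adjusted p (points, with SE bars; red, called); grey ticks under each point are the same value under the other processing settings, and dotted lines mark -1 and 1. DUSP5, DUSP8 and DUSP10 kept to the right of 1 and DUSP7 to the left of -1 in each of the 17 other settings run, while DUSP4 and DUSP6 spread widely.

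DUSP8 and DUSP5 had the largest fold changes of the 9 members with an adjusted p, and which of them came first depended on transcript length. DUSP8 (chr11:1554051-1572271, minus strand, 7 exons) encodes a phosphatase for JNK and p38, known from brain and heart. The DMSO libraries held 346, 333 and 349 counts and the Chelator libraries 1519, 1694 and 1479. Levels were 0.843, 1.04 and 0.924 TPM in DMSO and 6.25, 5.62 and 6.45 TPM in Chelator. The groups were far apart on both scales. The log2 fold change was 2.68 ± 0.119, or 6.43-fold (DESeq2 adjusted p = 7.4e-111), and the test against a log2 fold change of 1 also passed (DESeq2 adjusted p = 3.8e-43). The size depended on transcript length: the mean effective length of DUSP8 transcripts fell from 5120 ± 331 bases in DMSO to 3120 ± 246 bases in Chelator. The log2 fold change was 1.95 with no length offset, beside 2.28 for DUSP5, and with protein_coding transcripts alone it was 1.79, beside 2.285 for DUSP5. DUSP8 was called in both.

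The 250 bases before the DUSP8 start (RefSeq, GRCh38.p14, chr11:1572272-1572521, minus strand) are shown because they hold the CRE at 2 places, 118 and 74 bases before the start. Capitals mark the CRE, and DUSP1 and DUSP8 were the only members with one among the 8 members matched in the table (all but DUSP4 and DUSP5, with 2 entries each for DUSP9 and DUSP10).
DUSP8: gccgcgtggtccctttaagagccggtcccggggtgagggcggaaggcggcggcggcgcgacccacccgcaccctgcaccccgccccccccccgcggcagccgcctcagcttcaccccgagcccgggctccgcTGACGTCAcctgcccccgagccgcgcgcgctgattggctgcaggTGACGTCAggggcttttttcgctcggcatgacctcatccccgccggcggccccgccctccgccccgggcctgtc
DUSP10, DUSP9 and DUSP2, which were also higher in every Chelator library, had no CRE in this window. The HRE core was found in DUSP1, in DUSP2 (113 and 112 bases before the start, on both strands) and in the second of the 2 DUSP9 entries (20 bases before). The EGR motif was found in DUSP2 (103 and 93 bases before) and DUSP16 (111 bases before). None of the 8 members matched held AP-1, ETS, CArG or NF-kappaB letters there.

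The reads of DUSP8 were assigned to different transcripts in the 2 groups. In Chelator, DUSP8-203, a 637-base transcript without an annotated coding sequence, took 117, 105 and 122 counts, while it had 0 counts in every DMSO library. Because it is short, these counts were 48.7%, 43.9% and 51.5% of the gene's TPM. DUSP8-203 starts at an exon of its own inside the gene (chr11:1559310-1559443). The level of DUSP8-202, the canonical protein-coding transcript of 4824 bases, was 3.21, 3.15 and 3.13 TPM in Chelator and 0.843 and 0.924 TPM in DMSO replicates 1 and 3. In DMSO replicate 2, 293 counts were assigned to DUSP8-201 and 39.9 to DUSP8-202. All 31-base words of DUSP8-201 also occur in other DUSP8 transcripts (100.0%). The usage test did not call DUSP8 (edgeR diffSpliceDGE, adjusted p = 0.17), and without DMSO replicate 2 it did (adjusted p = 0.00077). DUSP8-203 reached the count minimum only through the Chelator libraries, so neither value is support for a change in usage. Of the 31-base words of DUSP8-203, 22.2% occur in other genes, so the counts of this transcript are uncertain.

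KRTAP5-AS1, a long noncoding RNA, overlaps the start of DUSP8 on the opposite strand. It had 1, 0 and 0 counts in DMSO and 12, 15 and 16 counts in Chelator and was called higher. KRTAP5-AS1 reached the minimum total count only through the Chelator libraries, so this call is no support for a rise. Its counts were far fewer than those of DUSP8. Whether the counting used strand was not stated, so reads of DUSP8 and this RNA cannot be told apart where they overlap.

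DUSP10 was called higher as well. The product of DUSP10 (chr1:221701424-221742089, minus strand, 4 exons) dephosphorylates p38 and JNK, with little action on ERK. The DMSO libraries held 323, 235 and 231 counts and the Chelator libraries 719, 821 and 678. Levels were 1.83, 1.61 and 1.55 TPM in DMSO and 4.25, 4.58 and 4.80 TPM in Chelator. The groups did not overlap. The log2 fold change was 1.41 ± 0.154, or 2.66-fold (DESeq2 adjusted p = 1.7e-18), and the test against a log2 fold change of 1 did not pass (DESeq2 adjusted p = 0.23).

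The reads of DUSP10 were also assigned to different transcripts in Chelator. It was the one member that passed the usage test, beside 9.26% of the 11882 genes tested. DUSP10-203, annotated as a target of nonsense-mediated decay, had 0 counts in each DMSO library and 33.1, 31.7 and 52.8 counts in Chelator. It was 11.99%, 9.92% and 18.5% of the gene's TPM there. This transcript joins exon 1 to exon 3 of DUSP10-201, the canonical transcript, and leaves out its second exon of 854 bases (chr1:221738934-221739787). DUSP10-201 itself went from 1.83, 1.61 and 1.52 TPM to 3.74, 4.12 and 3.87 TPM. The usage test gave an adjusted p of 0.0022 (edgeR diffSpliceDGE) and 0.038 in limma diffSplice. DUSP10-203 reached the count minimum only through the Chelator libraries, where it is high, so these p-values are no support for a change in usage, and the counts per library are given as a description. With any one Chelator library left out, DUSP10-203 reached 10 counts in only 2 libraries and the gene was not tested. Of the 31-base words of DUSP10-203, 96.9% occur in other DUSP10 transcripts, so its counts rest on few positions.

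**Figure D3:**
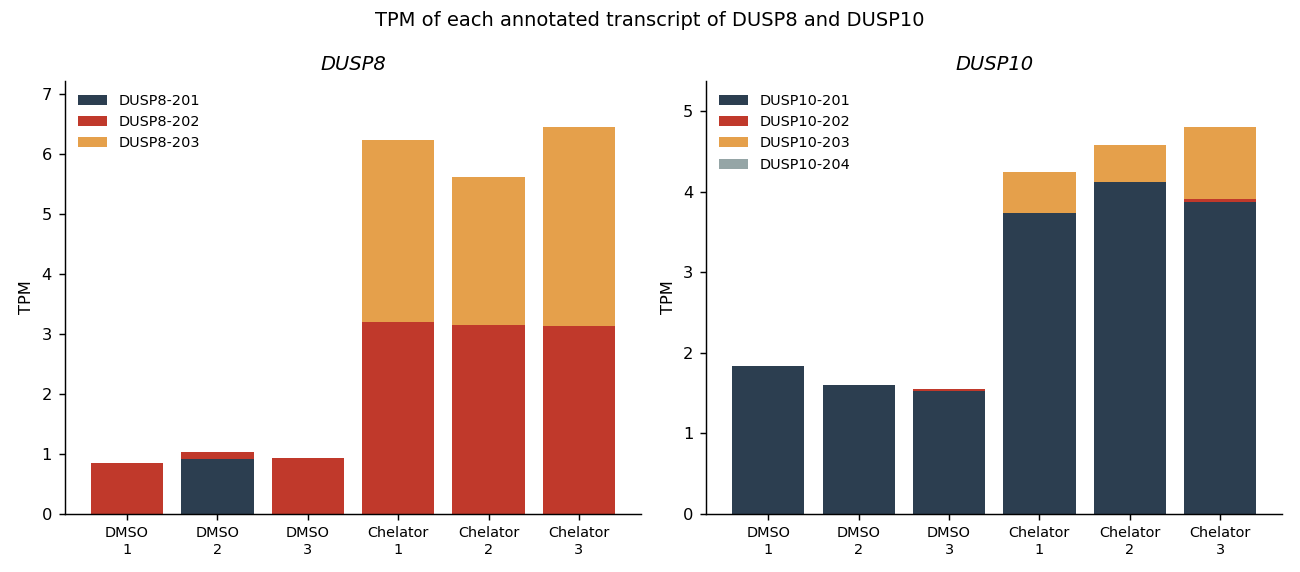
Stacked TPM of each annotated transcript of DUSP8 (left) and DUSP10 (right) in each library, on linear axes. The Chelator libraries gained DUSP8-203 (2.47 to 3.32 TPM) and DUSP10-203 (0.454 to 0.890 TPM), both at 0 in DMSO, on top of higher canonical transcripts.

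DUSP16 was the one member of its class that was not called. DUSP16 (chr12:12473282-12562863, minus strand, 7 exons) encodes a phosphatase for JNK and p38 that shuttles between nucleus and cytoplasm. DUSP16 counts were 2543, 2544 and 2278 in DMSO and 2481, 2391 and 2038 in Chelator. Normalised counts were 2534, 2692 and 2546 against 2524, 1896 and 2143, so Chelator replicate 1 lay just below the DMSO range. The log2 fold change was -0.24 ± 0.11 (DESeq2 adjusted p = 0.066). It passed without Chelator replicate 1 (-0.36, adjusted p = 0.00087), without the length offset (adjusted p = 0.00038) and with centring on the mean change (adjusted p = 0.0078). DUSP16-202 and DUSP16-201 carried 51.6 ± 2.43% and 41.9 ± 1.31% of its TPM in DMSO and 45.5 ± 5.18% and 47.3 ± 2.06% in Chelator, and usage was not called. ENSG00000290048, a noncoding RNA on the opposite strand of DUSP16, had 16, 14 and 17 counts in DMSO and 2, 10 and 6 in Chelator.

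DUSP7 and DUSP9 were also tested for usage and not called. DUSP7-202 made up 98.7 ± 0.29% of DUSP7 TPM in DMSO and 96.1 ± 1.51% in Chelator. DUSP9-201 and DUSP9-202 carried 78.4 ± 9.1% and 21.3 ± 9.44% of DUSP9 TPM in DMSO, with DMSO replicate 3 at 67.9% and 32.1%, and 82.8 ± 4.27% and 17.2 ± 4.27% in Chelator. The other 5 members did not have 2 transcripts with enough counts.

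The order of the members by level changed with treatment. In DMSO the order was DUSP7 (12.5 TPM on average), DUSP1 (8.17), DUSP16 (7.60), DUSP9 (5.43), DUSP10 (1.66), DUSP5 (1.61), DUSP8 (0.934), DUSP4 (0.0804), DUSP6 (0.0318) and DUSP2 (0). Of these neighbours, DUSP1 and DUSP16, DUSP10 and DUSP5, and DUSP4 and DUSP6 overlapped over their 3 libraries. In Chelator DUSP1 led (14.3 TPM), followed by DUSP5 (7.71), DUSP9 (6.88), DUSP16 (6.50), DUSP8 (6.11), DUSP7 (5.61) and DUSP10 (4.54). The ranges of DUSP9, DUSP16 and DUSP8 each overlapped that of the next in this order, and those of DUSP7 and DUSP10 did not. DUSP4 (0.141), DUSP2 (0.0366) and DUSP6 (0.0144) came last, and the ranges of DUSP2 and DUSP6 overlapped.

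Summed by class, the nuclear members went from 9.87 ± 0.462 to 22.2 ± 0.455 TPM and the JNK and p38-selective members from 10.2 ± 1.04 to 17.2 ± 0.988 TPM. The ERK-selective cytoplasmic members went from 18.0 ± 1.64 to 12.5 ± 0.643 TPM. DUSP1 and DUSP5 gave nearly all of the first sum and DUSP7 most of the third in DMSO. DUSP7 alone was 32.8 ± 1.2% of the summed TPM of all members in DMSO and 10.8 ± 0.493% in Chelator. The sum over all members was 38.03 ± 3.13 TPM in DMSO and 51.9 ± 1.51 TPM in Chelator. The JNK and p38-selective sum and the sum over all members include DUSP8-203 in Chelator (2.47 to 3.32 TPM), whose counts are uncertain. All these sums are descriptions with no test.

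The 3′ untranslated regions were searched for AUUUA, the core of AU-rich elements that shorten the life of many early response mRNAs. Among 15177 tested genes with such a region, the median was 2 copies and 1.58 copies per kb, and 70.6% had at least 1. DUSP1 had 4 copies (6.01 per kb), DUSP10 had 3 (3.04 per kb), DUSP8 had 4 (1.62 per kb) and DUSP16 had 8 (2.25 per kb). DUSP2, DUSP4, DUSP6 and DUSP9 had 3, 6, 1 and 1. DUSP5 and DUSP7, one called higher and the other lower, had none. The densest 30 bases are shown for members with at least 2 copies within 30 bases, with AUUUA in capitals, read from GENCODE transcripts. DUSP2 had no such stretch, and DUSP4 was left out of this search.
DUSP1 (GRCh38, chr5:172768651-172768680, minus strand): ggcucgagagggcugguccuuAUUUAUUUA
DUSP8 (GRCh38, chr11:1556382-1556411, minus strand): aaguaaauauuucgauuuuuuAUUUAUUUA
DUSP10 (GRCh38, chr1:221701511-221701540, minus strand): aucagaauguaagaaaaaaaaAUUUAUUUA
DUSP16 (GRCh38, chr12:12473590-12473619, minus strand): uugaguugaaguuacAUUUAagaaaAUUUA
In DUSP1, DUSP8 and DUSP10 the run of capitals is a pair of overlapping copies, and in DUSP16 the copies are apart. These are counts of letters, and mRNA decay was not measured.

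Of the 17 ERK, JNK and p38 kinases that the phosphatases act on and their upstream MAP2Ks, 1 was called higher and none lower, and the median log2 fold change was 0.01. At an adjusted p under 0.05, whatever the fold, 4 were higher and 5 lower. Over all 24542 genes tested, 8.18% were called higher, 2.60% were called lower and 37.7% had an adjusted p under 0.05. The same shares stand beside the counts of each list below. The ERK gene MAPK3 had a log2 fold change of 0.10 ± 0.094 (DESeq2 adjusted p = 0.46). Of the JNK genes, MAPK8 was slightly higher (0.36 ± 0.081, DESeq2 adjusted p = 3.8e-05), MAPK9 was lower (-0.48 ± 0.084, DESeq2 adjusted p = 6.5e-08) and MAPK10 did not pass. The p38 gene MAPK14 was slightly lower (-0.32 ± 0.076, adjusted p = 0.00015). The called gene was MAPK13, which encodes p38 delta, with 39, 47 and 36 counts in DMSO and 193, 221 and 205 counts in Chelator. MAPK13 had a log2 fold change of 3.01 ± 0.368 (DESeq2 adjusted p = 5.2e-15), and 2.11 without the length offset. MAPK13 averaged 0.112 TPM in DMSO.

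Of the 13 RAS, RAF and adaptor genes none was called, while 2 were higher and 6 lower at an adjusted p under 0.05. Their median log2 fold change was -0.01. The atypical DUSPs and STYX proteins are mostly small relatives that lack the kinase-binding domain. They gave no call among the 14 of 17 with an adjusted p (3 higher and 1 lower at an adjusted p under 0.05, median 0.10). The other MAP kinase phosphatases, tyrosine phosphatases such as PTPN7 and serine/threonine phosphatases such as PPM1A, gave none among 5 of 6 (2 higher, 1 lower, median 0.20). Whether the members differ from these relatives was not tested.

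Among 18 genes that ERK signalling is known to switch on, 6 were called higher and none lower. Their median log2 fold change was 0.52, and 10 were higher and 2 lower at an adjusted p under 0.05. The largest change was in PHLDA1, a growth regulator, with 119, 129 and 84 counts in DMSO and 6546, 5632 and 4794 counts in Chelator. PHLDA1 had a log2 fold change of 5.52 ± 0.135. The transcription factor EGR1 went from 3619 ± 333 to 35640 ± 1590 normalised counts (3.30 ± 0.083), and IER3, an early response gene, from 617 ± 33.7 to 2177 ± 106 (1.82 ± 0.10, DESeq2 adjusted p = 6.6e-71). Of the feedback inhibitors of the Sprouty family in the same list, SPRY4 was higher without reaching the fold threshold (0.79 ± 0.085, DESeq2 adjusted p = 3.8e-19), and SPRY1 and SPRY2 did not pass.

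**Figure D4:**
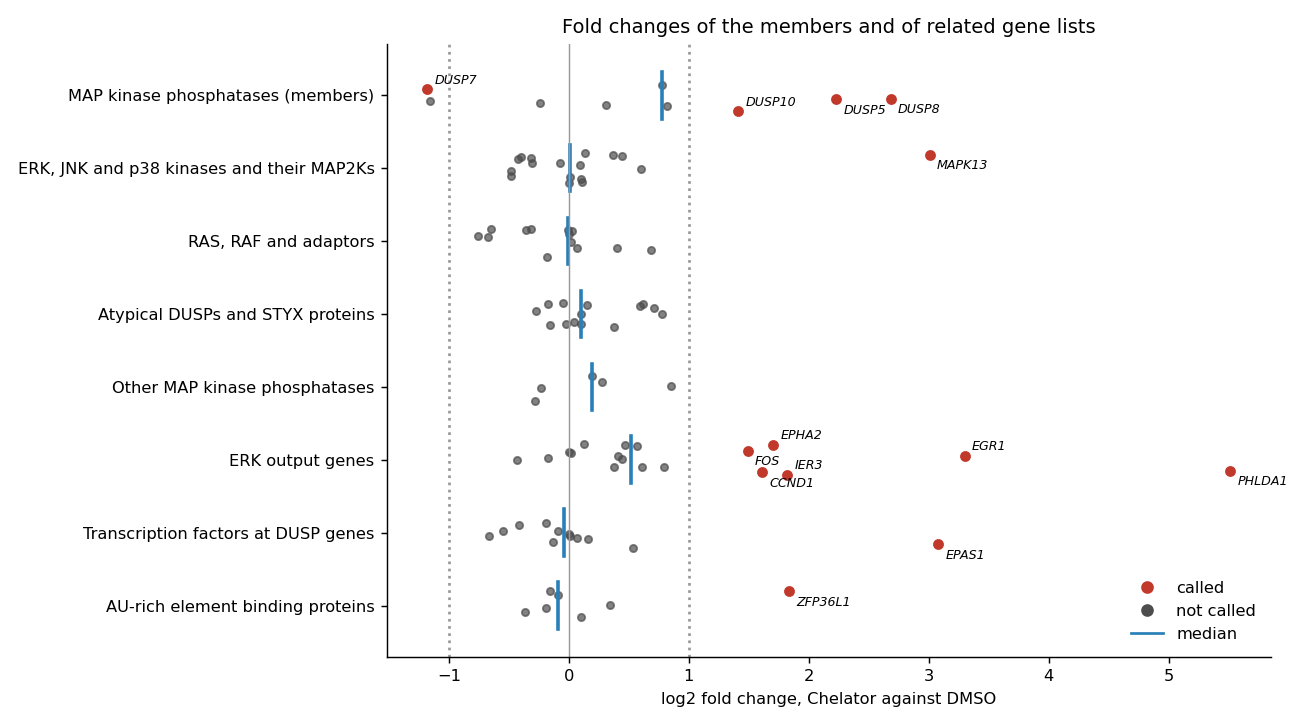
Log2 fold change of Chelator against DMSO for the 9 members with an adjusted p and for the genes of 7 related lists; each point is a gene, red points with names are called, blue lines are list medians and dotted lines mark -1 and 1. The members spread from -1.18 to 2.68, the kinases and the RAS and RAF genes lay between -1 and 1 except for MAPK13, and 6 ERK output genes lay above 1.

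Of 12 transcription factors known from DUSP genes, EPAS1 was the 1 called, with a median of -0.04 over the list, and at an adjusted p under 0.05 there were 2 higher and 3 lower. EPAS1 encodes the hypoxia-inducible factor subunit HIF-2alpha and had a log2 fold change of 3.08 ± 0.13 (DESeq2 adjusted p = 6.9e-121), while HIF1A had 0.003 (0.99) and CREB1, whose protein binds the CRE, -0.19 (0.20). Of 7 AU-rich element binding proteins, ZFP36L1 was the 1 called (1.83 ± 0.085, DESeq2 adjusted p = 1.9e-100), with a list median of -0.09 and 2 higher and 2 lower at an adjusted p under 0.05. ZFP36L1 promotes the decay of mRNAs that carry AUUUA.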

How the data were processed

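The authors quantified the paired-end reads of each library with salmon 1.10.2 and deposited, for each of 252045 transcripts, an estimated count and a TPM value, with replicates not pooled. The transcript annotation, bias options and use of strand are not given in the sources used here. The submitters' processing notes also name STAR 2.7.11b and DESeq2 3.19 on hg38. No column of sample values was left out.

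Transcripts were matched to GENCODE release 44 by identifier, and the deposited estimated counts were summed per gene and rounded. Unmatched transcripts (0.139% to 0.150% of counts) were dropped. Genes with a total above 10 were tested with DESeq2 1.42.0 (R 4.3.3; Wald test, median-ratio size factors, mean transcript length as an offset, Benjamini-Hochberg adjustment over all genes). Normalised counts are given as mean ± SD of 3 libraries. Transcript usage was tested with edgeR 4.0.16 (diffSpliceDGE; transcripts reaching 10 counts in no fewer than 3 libraries) and called at an adjusted p under 0.05 with a TPM share changed by more than 5 percentage points. Alternatives used edgeR and limma 3.58.1. The tests were checked on simulated counts.

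Genes named were the 10 members, MAPK3, MAPK8, MAPK14 and, from each list, up to 3 called genes with the largest change at a mean normalised count of at least 50, besides noncoding RNAs that overlap members, markers, MAPK9, MAPK10, PTPN7, PPM1A, SPRY1, SPRY2, SPRY4, ETS1, HIF1A and CREB1, which were chosen after their values were seen. Some genes of the lists are not reported here by name. The members and lists were chosen with earlier results of these data known. Promoters came from RefSeq (GRCh38.p14), and the 250 bases before the start were searched on both strands.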

Additional observations from a re-analysis of the deposited data

How the results depend on the processing

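The calls of DUSP5 and DUSP8 higher were kept in each of the 17 other settings. The number of called members was 4 in each of the 6 fits without 1 library and 2 when the test was against an absolute log2 fold change of 1, where DUSP7 (-1.18, adjusted p = 0.71) and DUSP10 (1.41, 0.23) were lost and DUSP1 (0.78) and DUSP9 (0.31) had an adjusted p of 1.0. DUSP9 did not pass with centring (0.21), with GC and length trends removed (0.16) or in limma on log2(TPM + 1) (0.29), and ranged from 0.27 to 0.36 with 1 library left out. DUSP16 passed with centring (-0.35) and without the length offset (-0.32), and ranged from -0.36 to -0.15 with 1 library left out. DUSP2 passed in edgeR (5.39) and without the length offset (4.66) but not with protein_coding transcripts alone or in limma on log2(TPM + 1) (0.052). The members' median was 0.19 in limma on log2(TPM + 1), where DUSP2 also had an adjusted p and all 10 members entered, and 0.295, the value of DUSP9, over the same 9 members. It was 0.51 to 0.93 with 1 library left out, the highest without DMSO replicate 2, where DUSP6 had no adjusted p. Centring moved the median of all genes by -0.105. The list of transcription factors had 2 calls without the length offset, ETS1 being added. Members called for usage ranged from 0 to 2 with 1 library left out, since DUSP8 was added without DMSO replicate 2 and DUSP10 could not be tested without a Chelator library.

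Replicate numbers did not pair the libraries (correlations of deviations of -0.004, 0.125 and 0.094). With a replicate block 4 members were called, the median of the members was 0.78 and DUSP9 had 0.31 (adjusted p = 0.029); the usage call of DUSP10 had an adjusted p of 0.027, and no call changed. Depth limits DUSP2, DUSP4 and DUSP6, which had fewer than 100 counts in every library.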
